A study of Mus musculus with 5 samples.

Results

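Interferon-stimulated genes were followed through the cells of 4T1 tumors. The 39 members were taken by symbol: the IFIT family (Ifit1, Ifit2, Ifit3, Ifit3b), the ISG15 conjugation genes (Isg15, Usp18, Herc6), the enzymes Isg20, Rsad2 and Cmpk2, the transcription factors Irf7, Irf9 and Stat2, the OAS family (Oasl1, Oasl2, Oas1a, Oas2, Oas3), Mx1 and Mx2, the nucleic acid sensors Dhx58, Ifih1 and Zbp1, the Ifi200 genes (Ifi204, Ifi209, Ifi213, Ifi214), the GTPases Gbp2 and Ifi47, the Schlafen genes (Slfn1, Slfn4, Slfn5, Slfn8), and Bst2, Ifi44, Ifi27l2a, Rtp4, Xaf1 and Trim30a. All 39 were among the 54987 features of the whole-tumor libraries, and 37 were among the 32285 features of the T cell libraries, where Mx1 and Mx2 were not analysed. Together both feature lists held 55645 features.

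The cells came from 5 droplet scRNA-Seq (single cell RNA sequencing) libraries of 4T1 tumors. 4T1 is a murine mammary carcinoma line, here carrying Thy1.1 (CD90.1), that was implanted orthotopically into female BALB/c mice, whose age the labels give as 12 weeks. Doxorubicin (DOX), a DNA-damaging anthracycline, was injected intravenously 3 times at 5 mg/kg every 3 days, and controls were given saline. Whole tumor made up 3 libraries: control, DOX sensitive (growth inhibited by DOX) and DOX resistant (growth not inhibited). For the other 2, T cells of DOX-treated sensitive or resistant tumors were enriched by removing other immune cells and CD90.1+ cancer cells on magnetic columns, with 3 independent tumors pooled. The cells outside the T lineage in those libraries are the ones that escaped this depletion, and no saline control exists for them. Each group was 1 library, so no difference between groups has a replicate check and no p-value is given. Brackets hold 95% intervals that cover counting error only. The labels conflict for the whole-tumor library titled resistant, whose source field names a sensitive tumor. For the control, the same field gives sensitive tumors under saline, and the DOX sensitivity field reads N/A. Whole-tumor libraries are therefore called by the group in their title.

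Interferons are cytokines, and those of type I and type III are released when cells sense foreign or misplaced nucleic acids. Type I and type III interferons signal through JAK kinases to a complex that holds STAT2 and IRF9 and binds the interferon-stimulated response element (ISRE) in the promoters of many of these genes, while interferon gamma acts mainly at gamma-activated sites (GAS). The induced proteins block viral replication, sense nucleic acids, tag proteins with ISG15 and, through IRF7, feed back on interferon production. In tumors such genes are used as a readout of interferon exposure in both immune and malignant cells.

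RefSeq promoter windows (GRCm38.p6, 250 bases before to 50 bases after the transcript start) were matched for 30 of the 39 members. The ISRE core GAAANNGAA, searched on both strands, was present in 17 of the 30 (56.7%) and in 9.76% of all 27025 genes with a window. The GAS letters TTCNNNGAA were present in 4 of the 30 (13.3%; Bst2, Ifit2, Isg20 and Oas1a) and in 9.55% of all genes. These matches are descriptions of letters and not measured binding sites. Windows of 6 members with high levels or high ratios in neutrophils or cancer cells are shown 5′ to 3′ on the gene's own strand, with GAAANNGAA matches of either strand in capitals and overlapping matches joined. The windows of Oasl2 and Irf7 hold no match and are shown beside the 4 that do. The windows are Isg15 on the minus strand at chr4:156200769-156201068, Ifit1 on the plus strand at chr19:34640639-34640938, Rsad2 on the minus strand at chr12:26456403-26456702, Oasl2 on the plus strand at chr5:114896684-114896983, Bst2 on the minus strand at chr8:71537423-71537722 and Irf7 on the minus strand at chr7:141266375-141266674.
Isg15: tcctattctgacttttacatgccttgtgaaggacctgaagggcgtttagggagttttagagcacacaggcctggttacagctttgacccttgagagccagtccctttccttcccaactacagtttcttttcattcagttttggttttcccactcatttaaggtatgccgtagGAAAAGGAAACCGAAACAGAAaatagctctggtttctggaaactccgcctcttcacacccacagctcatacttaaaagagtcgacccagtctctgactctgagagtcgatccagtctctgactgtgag
Ifit1: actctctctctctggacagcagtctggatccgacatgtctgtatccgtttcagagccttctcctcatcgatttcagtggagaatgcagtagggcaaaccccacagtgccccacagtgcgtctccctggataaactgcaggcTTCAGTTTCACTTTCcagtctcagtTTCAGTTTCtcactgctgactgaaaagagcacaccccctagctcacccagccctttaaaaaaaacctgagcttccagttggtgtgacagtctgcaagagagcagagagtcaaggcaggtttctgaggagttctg
Rsad2: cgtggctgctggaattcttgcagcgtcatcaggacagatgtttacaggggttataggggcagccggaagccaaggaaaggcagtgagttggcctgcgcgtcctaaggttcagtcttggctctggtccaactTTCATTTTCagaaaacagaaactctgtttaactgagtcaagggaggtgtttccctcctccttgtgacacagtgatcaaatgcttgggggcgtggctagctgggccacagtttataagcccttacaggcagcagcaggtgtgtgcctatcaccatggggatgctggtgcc
Oasl2: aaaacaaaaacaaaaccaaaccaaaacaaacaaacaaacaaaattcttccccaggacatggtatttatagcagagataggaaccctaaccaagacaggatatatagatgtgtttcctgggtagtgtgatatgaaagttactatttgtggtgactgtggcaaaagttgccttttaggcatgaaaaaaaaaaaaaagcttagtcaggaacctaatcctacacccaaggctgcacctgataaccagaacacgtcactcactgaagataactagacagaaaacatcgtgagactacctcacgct
Bst2: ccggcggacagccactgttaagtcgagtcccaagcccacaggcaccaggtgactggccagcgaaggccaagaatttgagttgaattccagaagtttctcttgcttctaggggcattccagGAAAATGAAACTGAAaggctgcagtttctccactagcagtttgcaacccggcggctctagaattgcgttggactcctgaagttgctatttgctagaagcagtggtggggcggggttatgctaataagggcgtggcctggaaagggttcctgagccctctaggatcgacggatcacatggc
Irf7: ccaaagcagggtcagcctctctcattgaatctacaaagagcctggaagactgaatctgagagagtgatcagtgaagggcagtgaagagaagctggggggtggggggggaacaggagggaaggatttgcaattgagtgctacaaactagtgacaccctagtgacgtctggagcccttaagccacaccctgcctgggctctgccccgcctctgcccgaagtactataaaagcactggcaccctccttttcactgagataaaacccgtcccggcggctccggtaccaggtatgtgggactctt
Isg15 carried 3 overlapping matches that began 78, 72 and 66 bases before the start. Ifit1, in the cluster of 4 IFIT genes on chromosome 19, carried 3 matches. In Bst2 a pair of overlapping ISRE matches followed a GAS match that began 136 bases before the start and overlapped the first of them. Rsad2 carried 1 match.

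Cells were assigned to lineage gates by the markers they expressed, and the UMIs (unique molecular identifiers, 1 per captured RNA molecule) of all members were summed over a gate and scaled to CPM, the counts per 1000000 UMIs of that gate. After filtering, the whole-tumor libraries held 488 (control), 269 (sensitive) and 263 (resistant) cells, and the T cell libraries 3448 (sensitive) and 3091 (resistant). Total UMIs before filtering ranged from 537293 to 1731940 in whole tumor and were 31690845 and 35908799 in the T cell libraries. The neutrophil gate held 308, 226 and 139 cells of the control, sensitive and resistant whole-tumor libraries, and the cancer gate 34, 6 and 45. The T cell gate held 65 of 488 cells of the library titled control, 3 of 269 of the one titled sensitive and 13 of 263 of the one titled resistant. The T cell share was thus highest in the library titled control, and each ratio to control rests on that title. Whether the titles control and sensitive are right could not be settled from the labels. A gate was compared only where both libraries had at least 20 cells, which left neutrophils and, for resistant against control, cancer cells. No cell barcode was shared between whole-tumor libraries, and 31 were shared by the T cell libraries. All 37 mitochondrial features had 0 UMIs in whole tumor, so RNA quality could not be read from them there. A CPM falls when other genes of the gate take more of its UMIs.

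In neutrophils of both whole-tumor libraries titled as DOX treated, the interferon-stimulated genes were about 3-fold above the library titled control. Their summed level was 2147 CPM [2035 to 2263] in control neutrophils, 6679 CPM [6431 to 6934] in sensitive and 6026 CPM [5777 to 6283] in resistant. The ratio to control was 3.11 [2.91 to 3.32] for sensitive and 2.81 [2.62 to 3.00] for resistant, while the median of all genes tested was 1.13 and 1.17 in the same comparisons. Both comparisons share the 1 control library. Were the titles control and sensitive exchanged, the ratio of sensitive to control would turn to 0.321 and that of resistant to control to 0.902. The value of 2.81 would then be the ratio of resistant to sensitive. Single-member ratios of sensitive to control, their order and the counts of higher and lower members would turn as well. In cancer cells the summed level was 730 CPM [663 to 803] in control and 2613 CPM [2508 to 2722] in resistant, a ratio of 3.58 [3.23 to 3.97], and the median gene was at 1.05. The 6 sensitive cancer cells stood at 2264 CPM and were not compared.

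**Figure D1:**
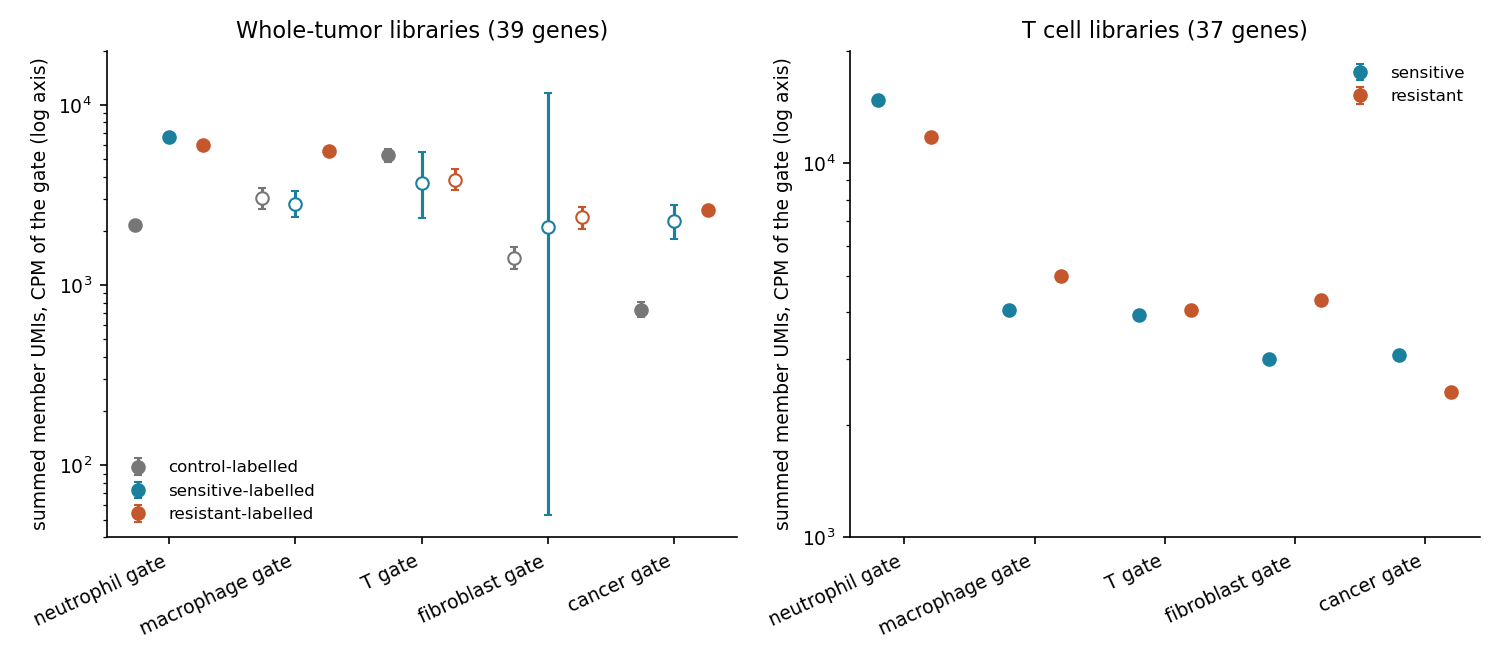
Summed level of the interferon-stimulated genes (CPM, log axis) in each lineage gate, for the 3 whole-tumor libraries (left) and the 2 T cell libraries (right), with exact Poisson 95% intervals; open symbols mark gates with fewer than 20 cells. Neutrophils of both whole-tumor libraries titled as DOX treated, at 6679 and 6026 CPM, sit above the one titled control at 2147 CPM. The T cell libraries differ less from each other.

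Single members were called where a gate's CPM differed at least 2-fold and both libraries together held at least 20 UMIs. In sensitive against control neutrophils, 24 of the 39 members passed the UMI minimum, 18 of them were at least 2-fold higher and 0 at least 2-fold lower, against 11.1% of all 3177 genes tested that were higher and 4.28% that were lower. In resistant against control neutrophils 23 members passed, 17 were higher and 0 lower, against backgrounds of 13.5% and 3.33%. A member that reached the minimum only through the group where it was high had to differ, so these counts are read beside the background only. The median member ratio was 3.42 for sensitive and 3.35 for resistant. Each of the 18 and 17 calls was kept when the cell with most UMIs of that member was left out of each library.

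Isg15, a ubiquitin-like protein that is attached to other proteins, was the most abundant member in neutrophils. It stood at 551 CPM in control, 1991 CPM in sensitive and 1498 CPM in resistant, ratios of 3.61 [3.19 to 4.11] and 2.72 [2.37 to 3.11]. The share of neutrophils with an Isg15 UMI was 39.3% in control, 68.6% in sensitive and 67.6% in resistant, at median depths of 1530.5, 1490.5 and 2161 UMIs per cell. Both treated libraries were thus above the control in level and in the share of cells. Usp18, the protease that removes ISG15, had 5, 14 and 29 UMIs, and its resistant-to-control ratio was 10.2 [3.90 to 33.7]. Herc6, an ISG15 ligase of mice, went from 6.23 CPM to 41.6 CPM in sensitive (6.68 [2.18 to 27.3]) and stood at 41.1 CPM in resistant, where it fell 1 UMI short of the minimum.

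Ifit1 binds foreign RNA caps and blocks their translation. It had the highest ratio of the tested members in sensitive against control neutrophils, an order that rests on those titles. It was at 7.78 CPM in control, 117 CPM in sensitive and 93.1 CPM in resistant, ratios of 15.1 [6.04 to 48.6] and 12.0 [4.65 to 39.2]. The other IFIT genes were near the limit of detection in neutrophils: Ifit2 had 1, 6 and 3 UMIs, Ifit3 had 1, 2 and 3, and Ifit3b had 0, 1 and 4. Rsad2 (viperin), which makes a chain-terminating nucleotide, was at 29.6 CPM in control, 342 CPM in sensitive and 353 CPM in resistant, ratios of 11.6 [7.14 to 19.8] and 11.9 [7.34 to 20.5]. Rsad2 was seen in 2.27% of control, 18.1% of sensitive and 25.9% of resistant neutrophils, shares that depend on depth. Cmpk2, its head-to-head neighbor and a mitochondrial nucleotide kinase, had a ratio of 1.57 [0.646 to 3.82] in sensitive, whose interval holds 1, and 2.49 [1.12 to 5.72] in resistant. Isg20, an RNA exonuclease, was at 114, 291 and 290 CPM, ratios of 2.56 and 2.55.

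**Figure D2:**
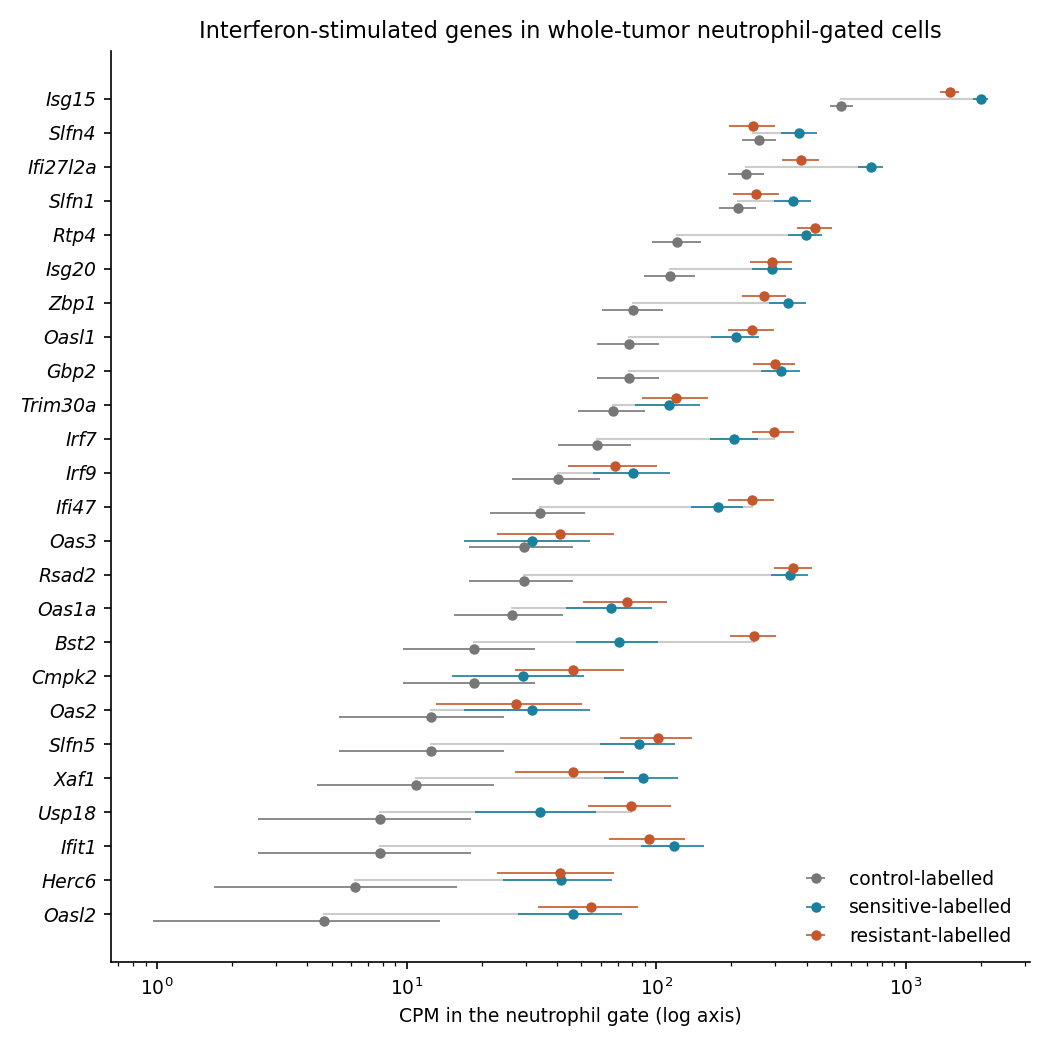
CPM (log axis) of the 25 members that passed the UMI minimum in either comparison with control, in whole-tumor neutrophils of the control, sensitive and resistant libraries, with exact Poisson 95% intervals. Ifit1, Rsad2 and Oasl2 lie at least 9.95-fold above control in both treated libraries, as Bst2 and Usp18 do in resistant, and Slfn4 and Oas3 lie close to control.

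Among the OAS genes, whose products make the second messenger that activates RNase L or are inactive relatives of it, Oasl2 went from 4.67 CPM to 46.5 CPM and 54.8 CPM, ratios of 9.95 [2.93 to 52.5] and 11.7 [3.48 to 61.6]. Oasl1, which limits translation of Irf7, was at 77.8, 208 and 241 CPM, ratios of 2.67 and 3.10. Oas1a had ratios of 2.50 and 2.90. Oas3 did not reach the 2-fold limit (1.08 [0.488 to 2.29] and 1.39 [0.657 to 2.88]), and Oas2 reached it in sensitive with an interval that holds 1 (2.55 [0.981 to 7.11]). Irf7, the factor that amplifies type I interferon production, was at 57.6 CPM in control, 205 CPM in sensitive and 296 CPM in resistant, ratios of 3.57 and 5.13. Irf9, the DNA-binding subunit shared by the ISRE complex, had ratios of 1.99 and 1.69, and Stat2 had 3, 7 and 10 UMIs.

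Zbp1, the sensor of left-handed nucleic acids, was at 81.0, 338 and 271 CPM, ratios of 4.17 and 3.35. The GTPases, which act on vacuoles of intracellular pathogens, were higher as well, with ratios of 4.05 and 3.83 for Gbp2 and of 5.14 and 7.03 for Ifi47. The Schlafen genes, regulators of lymphoid and myeloid growth, had unlike ratios. Slfn5 went from 12.5 CPM to 85.6 CPM and 101 CPM (6.88 [3.13 to 17.2] and 8.13 [3.73 to 20.2]), whereas Slfn4 was at 258, 374 and 244 CPM (1.45 [1.16 to 1.82] and 0.943 [0.720 to 1.23]). Slfn1 also stayed under 2-fold, at 1.66 and 1.19, and only the interval of the second ratio holds 1. The difference between Slfn5 and Slfn4 was not tested.

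Bst2 (tetherin), which holds budding virions at the cell surface, stood at unlike levels in the treated libraries. It was at 18.7 CPM in control, 70.9 CPM in sensitive and 246 CPM in resistant neutrophils, ratios of 3.80 [1.88 to 8.17] and 13.2 [7.19 to 26.5]. A single resistant cell held 49 of the 90 Bst2 UMIs, and without the leading cell of each library the resistant ratio was 8.52. Ifi27l2a, a small interferon-induced membrane protein, was higher in sensitive than in resistant, at 229, 722 and 381 CPM (3.15 [2.58 to 3.87] and 1.66 [1.31 to 2.11]). Rtp4 (3.26 and 3.56), Xaf1 (8.08 and 4.27) and Trim30a (1.68 and 1.80) were above control in both. Mx1 and Ifi213 had 0 UMIs in neutrophils of all 3 libraries. Dhx58, Ifi204, Ifi209, Ifi214, Ifi44, Ifih1, Mx2 and Slfn8 stayed under the UMI minimum in both comparisons, with at most 11 UMIs in any library.

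The 5 most abundant members held 63.9% of member UMIs in control neutrophils, 57.4% in sensitive and 49.2% in resistant. The control was the lowest of the 3 libraries in each of the neutrophil clusters 0, 1, 3, 6 and 8. In cluster 1, the highest, members were at 5481, 11054 and 10492 CPM in control, sensitive and resistant. In cluster 3, which in the control (74 cells) and sensitive (12 cells) libraries was rich in the granule genes Ngp, Camp and Ltf of immature neutrophils, they were at 1297, 3626 and 3035 CPM. The 16 resistant cells of that cluster had 0 Camp and Ltf UMIs. Without cluster 3 the ratios were 2.59 and 2.38. In clusters 0, 6 and 8 the control lay between 2302 and 2708 CPM and the treated libraries between 5172 and 7622 CPM.

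The neutrophil gates also differed in other RNA. S100a8 and S100a9, the most abundant neutrophil transcripts, together took 184053 CPM in control, 115752 CPM in sensitive and 110148 CPM in resistant neutrophils. With both left out of the totals the member ratios were 2.87 and 2.57. Macrophage markers summed to 82.5 CPM (6 of 8 detected, C1qa and Ms4a7 at 0), 159 CPM (8 of 8) and 189 CPM (8 of 8), cancer markers to 56.0, 41.6 and 183 CPM (7, 5 and 7 of 8), and T cell markers to 60.7, 12.2 and 19.2 CPM (5, 1 and 3 of 5). Their part in the result was not tested.

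To ask how many neutrophils carried several members, each cell was thinned at random to 500 UMIs and the number of members detected was counted. At least 5 members were found in 3 of 308 control neutrophils (0.974% [0.201 to 2.82]), 31 of 222 sensitive (13.96% [9.69 to 19.2]) and 30 of 139 resistant (21.6% [15.1 to 29.4]). The intervals of both treated libraries lay above that of the control and overlapped each other. No member was found in 49.4%, 18.5% and 18.7%. The limit of 5 cuts a continuous range, since 4 or 5 members were found in 6 and 1 control cells, 20 and 14 sensitive cells, and 10 and 14 resistant cells. Without thinning the shares were 17.9%, 48.2% and 58.3%, and 4 sensitive cells were too shallow to thin.

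**Figure D3:**
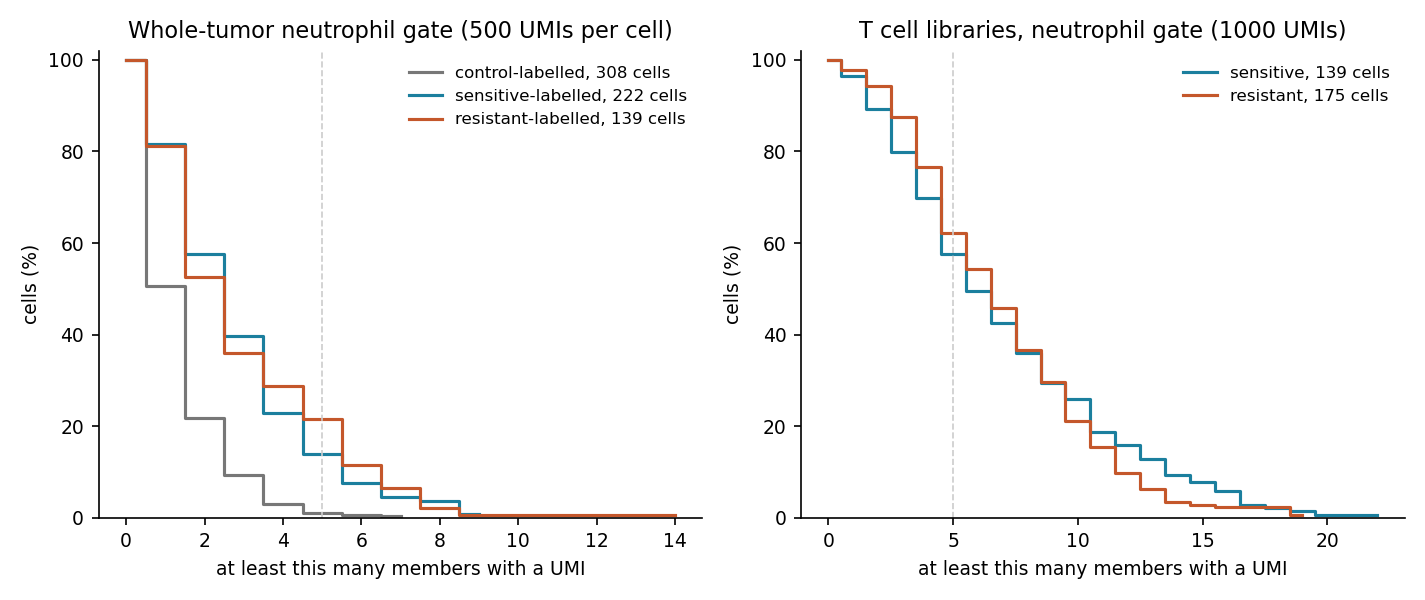
Percent of neutrophils (y axis) with at least the number of interferon-stimulated genes on the x axis, after each cell was thinned to 500 UMIs in whole tumor (left) or 1000 UMIs in the T cell libraries (right), 1 line per library; the dashed line marks 5 members. In whole tumor the control line drops to 0.974% at 5 members, below sensitive and resistant, and in the T cell libraries the lines cross.

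In cancer cells of the resistant library, where the sum was above control, Bst2 had the highest level of the members. Of the 39 members 25 passed the UMI minimum in resistant against control cancer cells, 21 were at least 2-fold higher and 0 lower, against 8.02% of all 6407 genes tested that were higher and 3.92% that were lower. As in neutrophils, a member that reached the minimum only through the library where it was high had to differ. These counts are thus read beside the background only, and the median member ratio carries the same limit. The median member ratio was 4.79, also with members at 0 in the control taken at their lower bound. Bst2 alone held 38.6% of member UMIs in control and 38.3% in resistant. It was at 282 CPM in control (25 of 34 cells) and 1000 CPM in resistant (43 of 45 cells), a ratio of 3.55 [3.00 to 4.21]. In the 6 sensitive cells Bst2 was at 1197 CPM.

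Irf7 showed the highest finite ratio among the called members, from 6.79 CPM to 131 CPM (19.3 [7.34 to 72.0]), and its UMIs were found in 27 of 45 resistant cells against 4 of 34 control cells. Isg15 went from 23.8 CPM to 166 CPM (6.98 [4.03 to 13.1]), with UMIs in 10 control and 23 resistant cells. Zbp1 went from 20.4 CPM to 104 CPM (5.12), Ifi44 from 8.49 CPM to 52.7 CPM (6.20) and Trim30a, an inhibitor of TLR signaling, from 5.10 CPM to 34.8 CPM (6.82 [2.13 to 34.9]). Each of these had UMIs in 18 or more of the 45 resistant cells. The IFIT genes were held by fewer cells. Ifit1 had 72 UMIs in resistant and 0 in control cells, a level at least 15.8-fold higher against a floor of 3 counts, yet the 72 lay in 10 cells and 90.3% of them in 5 cells. Ifit3 (26 UMIs, 7 cells, at least 5.72-fold), Ifit3b (27 UMIs, 6 cells, at least 5.94-fold) and Cmpk2 (31 UMIs, 7 cells, at least 6.82-fold) had 0 UMIs in the control as well.

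Rsad2 had 1 UMI in control and 19 in resistant cancer cells (12.5 [1.99 to 521]). A single cell held 12 of the 19, and without the leading cells 7 UMIs stood against 0, a ratio with no finite value and a lower bound of 1.45-fold against 3 counts. By that bound Rsad2 no longer passes the 2-fold limit. The other called members stayed past 2-fold without their leading cells, at their bound where the control had 0 UMIs, and Gbp2 and Ifi47 came to pass it. Slfn8 had 2 and 28 UMIs (9.24 [2.33 to 80.0]), and Oasl2 (4.87), Ifi27l2a (4.79), Usp18 (4.53), Rtp4 (3.60), Stat2 (3.21), Oas1a (2.81), Xaf1 (2.48), Ifi204 (2.21) and Herc6 (2.17 [0.901 to 5.98]) were also called, the last with an interval that holds 1. Gbp2 (90.0 to 168 CPM, 1.87), Ifi47 (1.91), Isg20 (1.23 [0.777 to 1.99]) and Irf9 (0.965 [0.452 to 2.13]) were not. Of the 14 members under the minimum, Oasl1 (0 and 19 UMIs in control and resistant), Ifih1 (2 and 13) and Oas3 (3 and 9) had most, Slfn4 had 1 and 3, and Ifi213 and Ifi214 had 0 in both libraries.

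**Figure D4:**
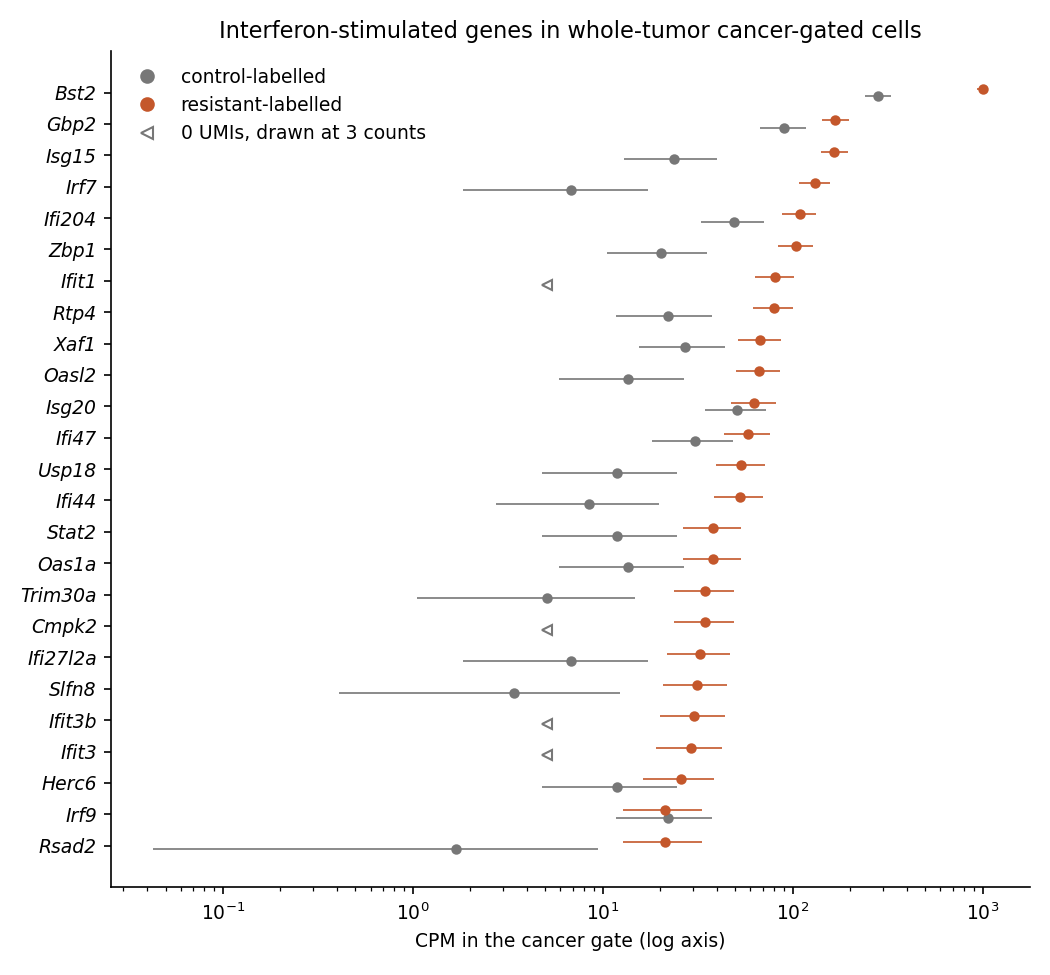
CPM (log axis) of members in whole-tumor cancer cells of the control and resistant libraries, with exact Poisson 95% intervals; triangles stand for 0 UMIs and are drawn at the level of 3 counts. Bst2 is the highest member in both libraries, and Irf7 lies furthest from its control value among the members detected in both.

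Neutrophil RNA in the cancer gate was lower in resistant than in control, with the neutrophil marker list at 338 CPM in control (6 of 7 markers, Cxcr2 at 0) and 186 CPM in resistant (7 of 7), and S100a8 with S100a9 at 1519 and 832 CPM. Macrophage markers were at 10.2 CPM (3 of 8) and 29.1 CPM (5 of 8), and T cell markers at 6.79 CPM (3 of 5) and 0 CPM. The part of these other markers in the result was not tested.

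Sensitive and resistant whole-tumor neutrophils were closer to each other than either was to the control. The summed ratio of sensitive to resistant was 1.11 [1.05 to 1.17], but the median member ratio was 0.970 (median gene 0.962), and without Isg15 the summed ratio was 1.04 [0.969 to 1.11]. Of 25 members that passed, 0 were at least 2-fold higher in sensitive (background 4.16%) and 2 at least 2-fold lower (background 7.14%). These were Bst2 (0.288 [0.183 to 0.442]) and Usp18 (0.431 [0.211 to 0.843]). Without the leading cells Bst2 was at 0.534 and lost the call, Xaf1 gained one in the other direction (2.03) and Usp18 was at 0.429. The largest ratios in favor of sensitive neutrophils were those of Ifi27l2a (1.90) and Xaf1 (1.89), neither past 2-fold.

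Other whole-tumor gates were too small for a comparison. In macrophages the members summed to 3031 CPM in control (15 cells), 2833 CPM in sensitive (11 cells) and 5591 CPM in resistant (43 cells), with Ifi27l2a leading in each (1164, 1037 and 1509 CPM). In T cells, where Ifi27l2a held 52.3% of the member UMIs of control, they summed to 5257 CPM (65 cells), 3691 CPM (3 cells) and 3854 CPM (13 cells). Fibroblasts were at 1414 CPM (10 cells) and 2377 CPM (5 cells) in control and resistant, and 1 cell in sensitive held 1 member UMI, of Bst2. Across the whole-tumor gates of the control library the order of the summed levels was T cells, macrophages, neutrophils, fibroblasts and cancer cells, though macrophages (15 cells) and fibroblasts (10 cells) are under the minimum of 20 cells and were not compared.

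Other genes of the pathway, 55 in a separate list, were counted the same way. As for the members, a gene that reached the minimum only through the group where it was high had to differ. These counts too are read beside the background only. In sensitive neutrophils 12 of 24 that passed the minimum were at least 2-fold higher (background 11.1%) and 1 lower (4.28%), which was Ifnar1, a type I interferon receptor chain (0.496 [0.162 to 1.29]). In resistant neutrophils 11 of 25 were higher (13.5%) and 0 lower (3.33%). Irf1, a factor induced by interferon gamma, had ratios of 3.19 and 3.77, and Socs1, a feedback inhibitor of JAK kinases, 4.19 and 3.52. The immunity-related GTPases Irgm1 (5.32 and 5.79) and Igtp (4.79 and 4.56) and the guanylate-binding protein Gbp7 (3.57 and 5.44) were higher in both, as were Irf5 (3.30 and 2.64) and the RNA sensor gene Ddx58 (2.44 and 4.30). Tbk1 (2.24), Socs3 (2.17) and Pias1 (17.1 and 34.2 CPM) were called in sensitive, and Gbp3 (10.6 [3.08 to 55.9]) and Iigp1 (42.2 [6.88 to 1736]) in resistant, where the control had 3 Gbp3 UMIs and 1 Iigp1 UMI and 23 of the 24 Iigp1 UMIs lay in 1 cell.

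Cxcl10, a chemokine that draws CXCR3-bearing T cells, had 5, 36 and 98 UMIs in control, sensitive and resistant neutrophils, ratios of 11.3 [4.43 to 36.9] and 34.5 [14.3 to 109], and the UMIs lay in 4, 11 and 13 cells. Between the treated libraries, 1 of 25 pathway genes was called higher in sensitive neutrophils (Tbk1, 2.55, background 4.16%) and 2 lower (Cxcl10, 0.328, and Iigp1, 0 against 24 UMIs, background 7.14%). In resistant cancer cells 9 of 27 pathway genes were called higher than control (background 8.02%), among them Igtp (6.44), Irgm1 (4.14), Ptpn6 (3.63), Gbp4 (3.52), Ddx58 (3.14), Ifnar2 (2.31), Adar (2.13) and Gbp7 (2.02), and 2 lower (background 3.92%), Cxcl9 (0.471) and Cxcl10 (0.189). All 42 Cxcl10 UMIs of the control cancer cells came from 1 cell. No interferon ligand reached the minimum in these gates: Ifng had 5, 0 and 1 UMIs over all cells of the control, sensitive and resistant libraries.

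In the T cell libraries sensitive tumors were compared with resistant ones. The median mitochondrial share before filtering was 2.47% in sensitive and 8.95% in resistant barcodes, of which 3.11% and 26.5% lay over the limit of 10%. The part of this difference in RNA quality in the ratios was not tested beyond dropping the filters. That changed no direction in the 5 lineage gates and was not done for the other gates. The gates held 139 and 175 neutrophils, 203 and 174 macrophages, 1972 and 1855 T cells, 815 and 596 fibroblasts, and 110 and 142 cancer cells of the sensitive and resistant libraries. Single members needed 100 UMIs over both libraries here. The sum of the 37 members was higher in sensitive neutrophils (14753 and 11770 CPM, 1.25 [1.21 to 1.30]) and cancer cells (3074 and 2445 CPM, 1.26 [1.22 to 1.30]), near 1 in T cells (3939 and 4041 CPM, 0.975 [0.962 to 0.988]), and lower in sensitive macrophages (4060 and 4982 CPM, 0.815 [0.792 to 0.838]) and fibroblasts (2992 and 4317 CPM, 0.693 [0.684 to 0.703]). The differences between gates were not tested. Neutrophils had the highest summed level of the 5 gates in both libraries.

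**Figure D5:**
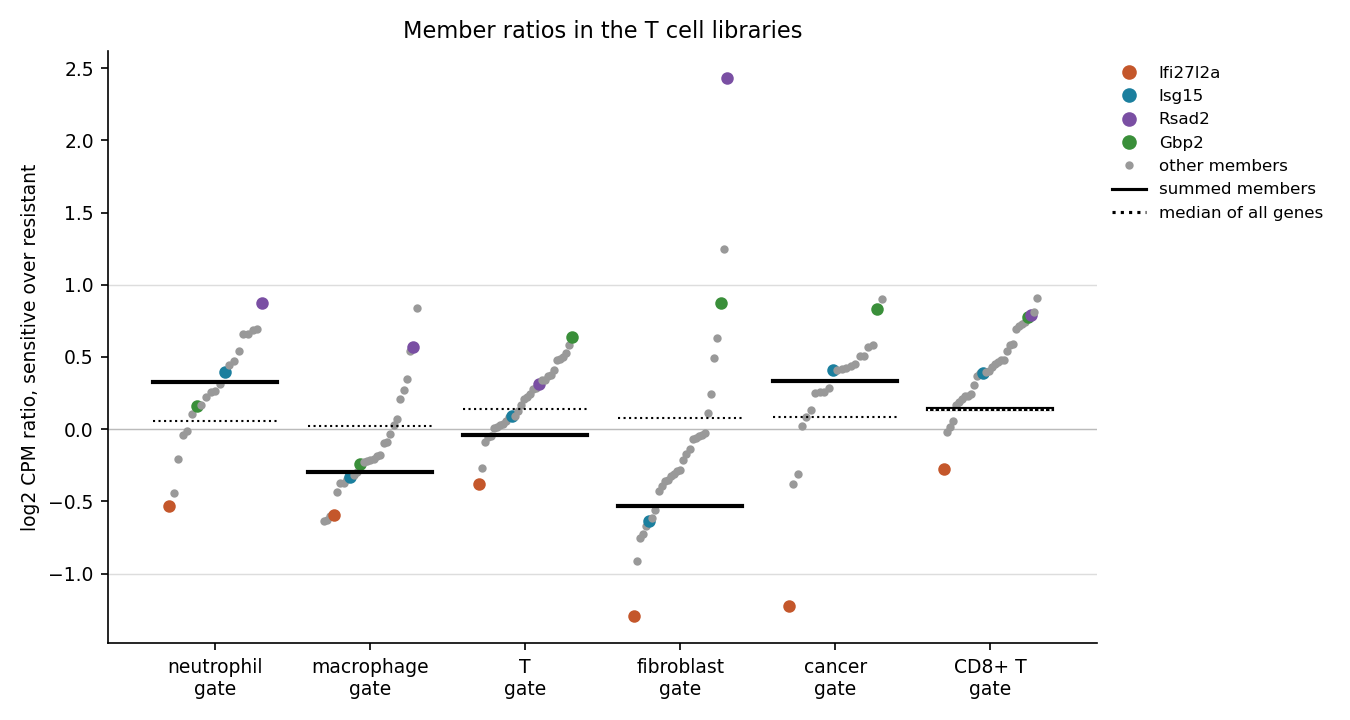
Ratio of CPM in sensitive over resistant T cell libraries (log2) for each member that passed 100 UMIs, by gate; black bars mark the ratio of the summed members, dotted lines the median of all genes tested (white on the bar for CD8+ T), grey lines 2-fold and no difference, and points members, with Ifi27l2a, Isg15, Rsad2 and Gbp2 colored. Ifi27l2a is the lowest point in the neutrophil, T cell, fibroblast, cancer and CD8+ gates, and the fibroblast Rsad2 point lies far above the others.

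In T cells 0 of 32 members that passed were at least 2-fold higher in sensitive (background 2.86%) and 0 lower (0.758%), and 27 of 32 had a ratio above 1, against 71.3% of all 9230 genes tested. The sum was led by Ifi27l2a, at 1460 CPM in sensitive and 1900 CPM in resistant (0.768 [0.752 to 0.785]), 37.1% and 47.0% of member UMIs. Without it the summed ratio was 1.16 [1.14 to 1.18], on the other side of 1. The highest ratios were those of Gbp2 (1.56 [1.40 to 1.73]), Slfn1 (1.50), Ifit2 (1.44), Irf7 (1.41), Ifit3 (1.40), Ifit3b (1.39), Cmpk2 (1.33) and Slfn5 (1.30). Isg15 was at 278 and 261 CPM (1.06 [1.01 to 1.12]) and Bst2 at 328 and 278 CPM (1.18). Below 1 lay Ifi27l2a, Ifi214 (0.832), Slfn8 (0.940), Isg20 (0.961) and Ifi204 (0.966). The median gene lay at 1.10 and the median member at 1.16. In this gate macrophage markers summed to 211 CPM in sensitive and 64.3 CPM in resistant (8 of 8 in both). Neutrophil markers summed to 30.1 and 17.0 CPM (7 of 7) and fibroblast markers to 476 and 567 CPM (7 of 7). S100a8 with S100a9 were at 103 and 112 CPM. The part of these markers in the result was not tested.

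CD8+ T cells (1348 sensitive, 1594 resistant) held most of the T cell gate. Their summed members were at 4409 and 4004 CPM (1.10 [1.08 to 1.12]), and 30 of 32 members had a ratio above 1, against 70.6% of all genes. The median member stood at 1.33 and the median gene at 1.10. Ifit3b (1.88), Cmpk2 (1.75), Rsad2 (1.73), Gbp2 (1.72), Irf7 (1.67), Slfn1 (1.65), Ifit3 (1.64) and Ifit2 (1.62) led, and Ifi27l2a (0.824) and Slfn8 (0.985) lay below 1. Macrophage markers stood at 134 and 40.04 CPM, neutrophil markers at 38.9 and 18.8 CPM and fibroblast markers at 600 and 410 CPM in CD8+ cells. Every marker of these lists was detected in both libraries. S100a8 with S100a9 were at 107 and 123 CPM in CD8+ cells. The share of CD8+ cells with at least 5 members after thinning to 1000 UMIs was 20.8% [18.6 to 23.0] in sensitive and 16.7% [14.9 to 18.6] in resistant, while over all T cells it was 17.0% in both. CD4+ cells without Foxp3 (179 and 45 cells) differed more, at 2535 and 6209 CPM (0.408 [0.380 to 0.439]), with Isg15 at 0.252 and Ifi27l2a at 0.338. In this gate macrophage markers summed to 414 CPM (8 of 8) in sensitive and 47.4 CPM (3 of 8) in resistant. Mast cell or basophil markers summed to 160 CPM (Mcpt8 alone) and 11.9 CPM (Cpa3 alone). S100a8 with S100a9 went the other way there, at 0.991 CPM in sensitive and 172 CPM in resistant. Foxp3+ cells (100 and 36) were at 3746 and 4164 CPM (0.900 [0.835 to 0.970]), with fibroblast markers at 45.9 CPM (4 of 7) in sensitive and 4322 CPM (6 of 7, Pdgfrb at 0) in resistant. The part of these other markers in the CD8+, CD4+ and Foxp3+ results was not tested.

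Within the T cell gate, cluster 7 had the highest member level, at 6967 CPM in 430 sensitive and 7428 CPM in 229 resistant cells. Cluster 8, at 2512 and 4468 CPM (243 and 54 cells), and cluster 11, at 4221 and 6803 CPM (261 and 130 cells), differed most between libraries among the clusters with at least 20 cells in each. Cluster 7 was 21.8% of T cells in sensitive and 12.3% in resistant, while cluster 1 was 8.37% and 32.0%. In each of the clusters 0, 1, 7, 8, 9, 11 and 17, the ones with that many cells in both libraries, the summed members and Ifi27l2a were lower in sensitive. The unequal cluster shares enter the ratio over the whole T cell gate. CD8+ cells, which held most of that gate, were not split by cluster.

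Neutrophils left in the T cell libraries had 0 of 21 members at least 2-fold higher in sensitive (background 1.06%) and 0 lower (5.04%), and 16 of 21 with a ratio above 1, against 55.5% of all genes. Isg15 was at 4308 and 3270 CPM (1.32 [1.23 to 1.41]) and Rsad2 at 1303 and 713 CPM (1.83 [1.60 to 2.09]), the highest ratio. Slfn5 (1.62), Isg20 (1.61), Ifit1 (1.58), Irf7 (1.58), Slfn4 (1.45), Ifi47 (1.39) and Rtp4 (1.36) followed. Ifi27l2a (1058 and 1528 CPM, 0.692), Bst2 (0.738), Xaf1 (0.865), Zbp1 (0.974) and Herc6 (0.993) lay below 1. The share of neutrophils with at least 5 members after thinning was 57.6% [48.9 to 65.9] in sensitive and 62.3% [54.7 to 69.5] in resistant, intervals that overlap. T cell markers summed to 38.1 CPM (4 of 5) and 239 CPM (5 of 5) and macrophage markers to 122 CPM (6 of 8) and 262 CPM (8 of 8) in these gates, and their part in the result was not tested.

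In macrophages 0 of 29 members were at least 2-fold higher in sensitive (background 1.59%), 0 were lower (0.352%), and 8 of 29 had a ratio above 1, against 53.5% of all genes. Lower in sensitive were Irf7 at 205 and 317 CPM (0.647 [0.573 to 0.729]), Ifi27l2a at 912 and 1376 CPM (0.663 [0.626 to 0.702]), Isg15 at 518 and 653 CPM (0.793) and Bst2 at 639 and 736 CPM (0.868). Ifit3 (0.642), Slfn1 (0.661), Xaf1 (0.741), Rtp4 (0.772), Oasl2 (0.774) and Ifi44 (0.786) were lower as well. Ifit1 (1.79), Rsad2 (1.48), Ifit2 (1.45), Ifi47 (1.27), Stat2 (1.21), Usp18 (1.15), Ifih1 (1.05) and Slfn5 (1.02) were on the other side. For Rsad2, 141 of 270 sensitive UMIs came from 1 cell, and without the leading cells its ratio was 0.850. Without its own leading cells Ifit1 was at 1.27. Neutrophil markers stood at 294 CPM (7 of 7) and 436 CPM (6 of 7, Retnlg at 0) and S100a8 with S100a9 at 67.3 and 290 CPM in these macrophages, and their part was not tested.

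In fibroblasts the lower sum of the sensitive library, at a ratio of 0.693, came to 0.832 without the member with most UMIs and to 0.821 as the median of members. Of 31 members that passed, 2 were at least 2-fold higher in sensitive (background 2.32%), 1 lower (0.552%), and 7 had a ratio above 1, against 65.1% of all genes. The lower one was Ifi27l2a, at 577 and 1416 CPM (0.407 [0.396 to 0.419]). Irf7 (84.5 and 159 CPM, 0.530), Oasl1 (0.594), Dhx58 (0.606), Oas2 (0.628), Isg15 (350 and 545 CPM, 0.643), Ifit2 (0.653), Usp18 (0.679) and Zbp1 (0.744) were below 1 too, and Bst2, the most abundant member in sensitive, was at 614 and 751 CPM (0.817). The higher calls, Rsad2 (5.41) and Ifit3b (2.38), came from single cells. A single sensitive fibroblast held 238 of 273 Rsad2 UMIs, and 116 of 154 Ifit3b UMIs also lay in 1 cell, and without the leading cells the ratios were 1.04 and 0.862.

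Gbp2 (108 and 58.9 CPM, 1.84 [1.67 to 2.02]) and Ifi47 (89.9 and 57.9 CPM, 1.55 [1.41 to 1.72]), both GTPases that respond strongly to interferon gamma, were higher in sensitive fibroblasts. Both stayed higher, and Ifi27l2a stayed lower, within each of the fibroblast clusters 3, 5 and 10. The summed members were at 3087 and 3742 CPM in cluster 3, 4282 and 5345 CPM in cluster 5, and 3328 and 4150 CPM in cluster 10. Cluster 13, with 136 sensitive fibroblasts and only 4 resistant cells of any gate, was at 795 CPM in sensitive. Without it the summed fibroblast ratio was 0.788 [0.778 to 0.799]. Other markers also differed between the fibroblast gates of the sensitive and resistant libraries: macrophage markers were at 120 and 74.1 CPM (8 of 8 in both), neutrophil markers at 75.0 CPM (4 of 7, Cxcr2, Retnlg and Trem1 at 0) and 29.9 CPM (7 of 7), cancer markers at 44.4 CPM (8 of 8) and 11.8 CPM (7 of 8, Cldn7 at 0) and pericyte markers at 48.8 and 97.7 CPM (5 of 5). S100a8 with S100a9 went the other way from the neutrophil markers, at 3.38 CPM in sensitive and 48.7 CPM in resistant fibroblasts. The part of all these markers in the result was not tested. After thinning, 11.9% [9.77 to 14.4] of sensitive and 16.5% [13.6 to 19.7] of resistant fibroblasts had at least 5 members.

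In cancer cells of the T cell libraries 0 of 22 members were at least 2-fold higher in sensitive (background 0.675%), 1 was lower (0.536%), and 19 had a ratio above 1, against 62.6% of all genes. Herc6, the ISG15 ligase (1.87 [1.37 to 2.56]), Gbp2 (326 and 183 CPM, 1.78 [1.60 to 1.99]), Usp18 (1.50), Ifi44 (1.48), Trim30a (1.42 [0.991 to 2.04]), Ifi47 (1.42), Isg20 (1.37) and Zbp1 (1.35) had the highest ratios. Isg15 was at 330 and 248 CPM (1.33) and Bst2, again the leading member, at 1025 and 858 CPM (1.19 [1.13 to 1.26]). The lower member was once more Ifi27l2a, at 47.5 and 111 CPM (0.428 [0.344 to 0.528]), followed by Ifit1 (0.768 [0.558 to 1.05]) and Slfn8 (0.805 [0.528 to 1.22]), whose intervals hold 1. Slfn4 had 0 UMIs in these cells in both libraries. Neutrophil markers were at 155 CPM (2 of 7) and 112 CPM (6 of 7) and T cell markers at 14.5 and 29.2 CPM (5 of 5). S100a8 with S100a9 were at 0 and 5.90 CPM. The part of these markers was not tested.

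Among pathway genes in fibroblasts, 7 of 37 that passed were at least 2-fold higher in sensitive (background 2.32%) and 0 lower (0.552%). They were Cxcl10 (98.7 and 27.6 CPM, 3.58 [3.15 to 4.09]), the GTPase genes Gbp5 (3.07), Gbp4 (2.92) and Tgtp2 (2.74), the transcription factor genes Irf8 (2.27) and Irf1 (103 and 48.9 CPM, 2.10), and Socs1 (2.08). The unlike macrophage, neutrophil, cancer and pericyte markers of the fibroblast gates, given above, apply here too. Their part in these calls was not tested. Neutrophils had 2 of 17 higher (background 1.06%), Cxcl10 (3.06, and 1.86 without the leading cells) and Socs1 (2.06). T cells had 1 of 38 (background 2.86%), Socs3 (3.44), cancer cells 1 of 31 (0.675%), Cxcl9 (2.58), and macrophages 0 of 35 (1.59%). None was 2-fold lower in these 4 gates, where the backgrounds were 5.04%, 0.758%, 0.536% and 0.352%. Ifng, the gene of interferon gamma, was at 344 and 218 CPM in T cells (1.58 [1.50 to 1.66]) and at 396 and 207 CPM in CD8+ cells (1.92 [1.81 to 2.03]), but at 125 and 1245 CPM in CD4+ cells without Foxp3 (0.100 [0.0797 to 0.126]). Ifnb1, a type I interferon, had 0 UMIs in sensitive and 6 in resistant over all cells.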

How the data were processed

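Droplet scRNA-Seq was made of 3 whole-tumor and 2 T cell libraries. The authors aligned reads to mm10 with Cell Ranger and deposited raw UMI counts per gene and barcode. Versions 3.0.1 (whole tumor) and 6.0.0 (T cell) are given per the file headers, and the submitters' processing notes name Cell Ranger with no version. Since these releases list unlike features, no whole-tumor value was set against a T cell library value. Ifi47, Slfn1 and Slfn8, each with more than 1 whole-tumor feature, were summed.

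Barcodes were required to show 200 genes and no more than 20% mitochondrial UMIs (whole tumor), or 500 genes and 10% (T cell). Mitochondrial limits removed 123 sensitive and 1618 resistant T cell library barcodes. Scrublet-ranked doublets (0.8% per 1000 barcodes), 112 and 159, were removed from the T cell libraries only. A cell was gated to the marker list with the highest share detected, at least 2 markers, out of 11 lists. CPM had exact Poisson intervals, CPM ratios exact conditional binomial intervals and shares Clopper-Pearson intervals, all at 95%. Lower bounds used a floor of 3 counts per library. Scripts ran in Python 3.11.15 with scanpy 1.11.5 and scipy 1.17.1 and were tested on simulated data.

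The members and lists were chosen with earlier results of these data known. Named in full were, per comparison, up to 8 members furthest from a ratio of 1 in each direction, the 5 with most UMIs in a gate, and pathway genes past 2-fold, some of which are not reported here. Alternatives changed the gate rule, filters, scaling, UMI minimum, thinning and the members or cells included.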

Additional observations from a re-analysis of the deposited data

Results flagged for a closer look

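In the T cell libraries the summed members lay on opposite sides of 1 in different gates. The sensitive-to-resistant ratio was 1.25 in neutrophils, 1.26 in cancer cells, 1.10 in CD8+ T cells, 1.18 in natural killer (NK) cells and 1.64 in dendritic cells. It was 0.815 in macrophages, 0.975 in the T cell gate, 0.693 in fibroblasts, 0.408 in CD4+ cells without Foxp3 and 0.900 in Foxp3+ cells. The difference between gates was not tested, and each rests on 1 library per group.

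Barcodes over the mitochondrial limit, which were left out of the comparisons except where the filters were dropped, also held member UMIs. Their summed level was 3504 CPM [3321 to 3694] over 123 barcodes of the sensitive T cell library and 4863 CPM [4803 to 4924] over 1618 barcodes of the resistant one.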

How the results depend on the processing

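No paired analysis was possible because each group had 1 library. Of 84 alternatives to the summed ratios, 3 changed sides of 1. The sensitive-to-resistant whole-tumor neutrophil ratio became 0.970 as the median of members, and the T cell gate ratio became 1.16 both without Ifi27l2a and as the median of members. The other summed ratios of the 5 lineage gates kept their direction in every alternative run, and the cause of a shift was not tested. These alternatives were not run for the CD8+, CD4+ without Foxp3, Foxp3+, NK and dendritic gates. Divided by the median gene ratio, the values there were 1.003, 0.393, 0.797, 1.16 and 1.60.

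Under the gate rule of 3 markers, the ratio was 3.04 for resistant over control neutrophils, 1.04 for sensitive over resistant neutrophils, and in the T cell libraries 1.14 for neutrophils, 0.781 for macrophages, 0.658 for fibroblasts and 1.19 for cancer cells. With gates by cluster the control comparisons gave 3.42 (sensitive neutrophils), 3.07 (resistant neutrophils) and 3.03 (cancer cells). Divided by the median gene ratio, the values were 2.74, 2.39 and, in the T cell libraries, 1.20 for neutrophils, 0.884 for T cells, 0.655 for fibroblasts and 1.19 for cancer cells. As medians of members, they were 3.42, 3.35 and 4.79 against control, and 1.20 for neutrophils, 0.863 for macrophages, 0.821 for fibroblasts and 1.33 for cancer cells. Each cell weighing alike gave 4.05 for cancer cells against control and 1.16, 0.781, 0.936 and 1.17 for neutrophils, macrophages, T cells and cancer cells of the T cell libraries. Without the leading member the values were 1.04 for whole-tumor sensitive over resistant, 0.873 for macrophages and 0.832 for fibroblasts. Without mitochondrial or doublet filters the T cell ratio was 0.959.

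Alternatives added after seeing the data gave 2.87 and 2.57 without S100a8 and S100a9, 2.59 and 2.38 without cluster 3, 0.775 for macrophages without the cell richest in members, and 0.788 for fibroblasts without cluster 13. At 5 times the UMI minimum, members past 2-fold against control numbered 9 of 11 and 10 of 13 tested in neutrophils. In cancer cells they numbered 5 of 6. They were 1 of 13 in sensitive against resistant neutrophils. In the T cell libraries they were 1 of 21 in fibroblasts and 0 of 7 in cancer cells. With a minimum of 1 UMI, 29 of 37 and 30 of 36 passed in neutrophils against control, and 7 of 37 between treated neutrophils. The T cell libraries then had 4 of 36 in neutrophils and 3 of 37 in macrophages. T cells had 1 of 37 and cancer cells 4 of 35. The share of all genes was not computed at these minimums. Without the leading cell of each member, 1 of 31 remained past 2-fold in fibroblasts at the main minimum. Depth limits single members: 15, 16 and 14 of 39 stayed under the UMI minimum in sensitive neutrophils, resistant neutrophils and cancer cells against control, and 16 and 15 of 37 in neutrophils and cancer cells of the T cell libraries.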

Other observations

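In the smallest gates of the T cell libraries the members had their own leaders. Dendritic cells (21 sensitive, 40 resistant) were at 3073 and 1874 CPM, a ratio of 1.64 [1.49 to 1.81], with Irf7 at 2.47 [1.87 to 3.28] and Isg15 at 1.76 [1.32 to 2.35]. NK cells (54 and 37) had the lowest summed level of the T cell library gates, at 1355 and 1146 CPM (1.18 [1.02 to 1.37]). In NK cells Ifi27l2a, the leading member of the T cell gate, had 13 and 9 UMIs, and Ifi47 led in sensitive and Bst2 in resistant. Ifi47 was at 254 and 117 CPM (2.18 [1.45 to 3.34]).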
